A study of Homo sapiens with 20 samples.

Results

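The 4 mature microRNAs (miRNAs) described here, miR-192-5p, miR-194-5p, miR-194-3p and miR-215-5p, come from 2 small clusters of miRNA genes that are known for their high expression in the gut epithelium. They were chosen by name: every row of the small RNA-seq count tables whose mature miRNA carried one of these names was taken, which gave 5 rows of 2813 and 4 miRNAs of 2588, because miR-194-5p is listed once for each of its hairpins, mir-194-1 and mir-194-2. The tables cover 20 libraries in 8 groups. HCT116 is a human colon cancer cell line and HEK293E a human embryonic kidney line. HCT116 cells whose DROSHA gene had been knocked out (KO) were given back DROSHA-p140 (3 libraries) or full-length DROSHA (3 libraries), and HEK293E KO cells likewise received DROSHA-p140 (3 libraries) or full-length DROSHA (3 libraries). HCT116 KO cells that expressed only GFP gave 1 library, and untreated wild-type (WT) HCT116 cells gave 1. WT HCT116 cells were also grown for 72 hr in medium with 0.1% fetal bovine serum (FBS), called serum starvation by the submitters, or with the usual 9.1% FBS (3 libraries each). The labels do not say whether the replicates were separate cultures or the KO lines single clones, so p-values measure the spread between these libraries, which may be technical.

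DROSHA is the nuclear RNase that cuts the hairpin precursor of a miRNA out of its long primary transcript, and DICER then cuts the hairpin to a duplex from which a 5p or a 3p strand is kept. p140 is a shorter form of DROSHA, and the series concerns the proline-rich disordered region of the enzyme. In gut epithelium miR-192, miR-194 and miR-215 are switched on during differentiation, and all 3 have been described as responsive to the tumour suppressor p53, acting on cell-cycle genes. A miRNA finds its targets mainly through its seed, bases 2 to 8.

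The mature sequences are shown because they decide which members can act on the same targets and which can be told apart in sequencing. The RefSeq sequences (GRCh38.p14) of all 7 mature rows of the 4 hairpins lie at the coordinates that the files give on hg38, and capitals mark the seed.
miR-192-5p: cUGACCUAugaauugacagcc
miR-215-5p: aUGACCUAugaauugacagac
miR-194-5p: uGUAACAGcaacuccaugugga
miR-194-3p: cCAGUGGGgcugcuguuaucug
miR-192-5p and miR-215-5p share the seed UGACCUA, which no other of the 2370 RefSeq mature miRNAs carries. They are identical at 19 of 21 positions, and with positions counted from 1 at the 5′ end of miR-192-5p the differences to miR-215-5p are C1A and C20A. The seeds of miR-194-5p and of miR-194-3p occur in no other RefSeq mature miRNA.

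The hairpins show how the clusters pair, with capitals marking the mature arms that the files list.
MIR192: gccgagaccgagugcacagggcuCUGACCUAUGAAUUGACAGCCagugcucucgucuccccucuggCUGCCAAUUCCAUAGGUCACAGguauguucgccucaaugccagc
MIR194-2: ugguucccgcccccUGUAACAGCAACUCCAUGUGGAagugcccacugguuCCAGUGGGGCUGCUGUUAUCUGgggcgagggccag
MIR215: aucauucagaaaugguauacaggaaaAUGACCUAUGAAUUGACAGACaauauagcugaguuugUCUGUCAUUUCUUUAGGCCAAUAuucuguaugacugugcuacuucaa
MIR194-1: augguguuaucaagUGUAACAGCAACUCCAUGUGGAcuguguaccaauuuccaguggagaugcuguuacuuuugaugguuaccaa
MIR192 (chr11:64891137-64891246, minus strand) and MIR194-2 (chr11:64891355-64891439, minus strand) are 108 bases apart and lie in an exon of the long non-coding gene MIR194-2HG (chr11:64889560-64893449), on its strand. MIR215 (chr1:220117853-220117962, minus strand) and MIR194-1 (chr1:220118157-220118241, minus strand) are 194 bases apart and lie antisense within introns of IARS2 (chr1:220094102-220148041, plus strand), the mitochondrial isoleucyl-tRNA synthetase, touching no exon of it. The 22 bases of miR-194-5p are the same in both hairpins. They are followed by CUG in MIR194-1 and by AGU in MIR194-2, so that a read ending within the shared bases does not show its hairpin.

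Depth differed widely between groups. Libraries held 305603 to 327011 reads in HCT116 p140, 764015 to 873718 in HCT116 full-length, 135084 to 246008 in HEK293E p140, 224262 to 335803 in HEK293E full-length, 38288 in KO GFP, 856658 in untreated WT, 1767223 to 2822317 in 0.1% FBS and 1745624 to 1927439 in 9.1% FBS. DROSHA itself is not measured by small RNA counts. miRNAs known to be made without DROSHA (18 listed names, such as mirtrons and miR-320a) took 69.7% of reads in KO GFP and 1.27% in untreated WT, 7.04% to 21.0% in HCT116 p140 and 2.74% to 4.98% in HCT116 full-length, 15.5% to 20.0% in HEK293E p140 and 10.6% to 12.3% in HEK293E full-length. Replicate 3 stood apart in each triplicate of HCT116: the counts of replicates 1 and 2 gave chi-square values of 3.57 to 8.29 per degree of freedom, against 36.4 to 88.9 for pairs with replicate 3. The labelled epithelial origin of HCT116 was checked by the summed level of 5 miR-200 family members, which was 40046 to 52349 reads per 1000000 reads of the library (CPM) in the WT serum libraries and 47661 CPM in untreated WT. That sum was 186 to 229 CPM in HCT116 p140, 285 to 355 CPM in HCT116 full-length and 4936 CPM in KO GFP, so the rescued HCT116 cells lacked the miR-200 level of the WT line. Markers of liver (miR-122-5p), muscle and neural cells stayed at or under 133 CPM in all libraries, but those of other cells did not. The 2 mesenchymal markers (miR-143-3p and miR-145-5p) summed to 1325 to 1726 CPM in 9.1% FBS, 1172 to 1275 CPM in 0.1% FBS and 509 CPM in untreated WT. In the serum libraries nearly all of this was miR-145-5p. With trimmed-mean (TMM) scaling it averaged 1342 CPM in 9.1% FBS and 1374 CPM in 0.1% FBS, against 10.8 and 45.6 CPM for miR-143-3p. The 6 blood markers summed to at most 953 CPM, in HEK293E full-length.

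All 5 rows were of low to middling abundance. miR-194-5p had 4079 reads over all libraries in its mir-194-2 row and 1889 in its mir-194-1 row, miR-192-5p had 1491, miR-215-5p 105 and miR-194-3p 30. By mean CPM miR-194-5p stood 139th and miR-192-5p 199th among 1697 miRNAs detected in 0.1% FBS, and 187th and 286th among 1626 detected in HCT116 full-length. The other arms of the hairpins, miR-192-3p with 39 reads and miR-215-3p with 10, were too rare to test in any comparison, as was miR-194-3p.

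**Figure D1:**
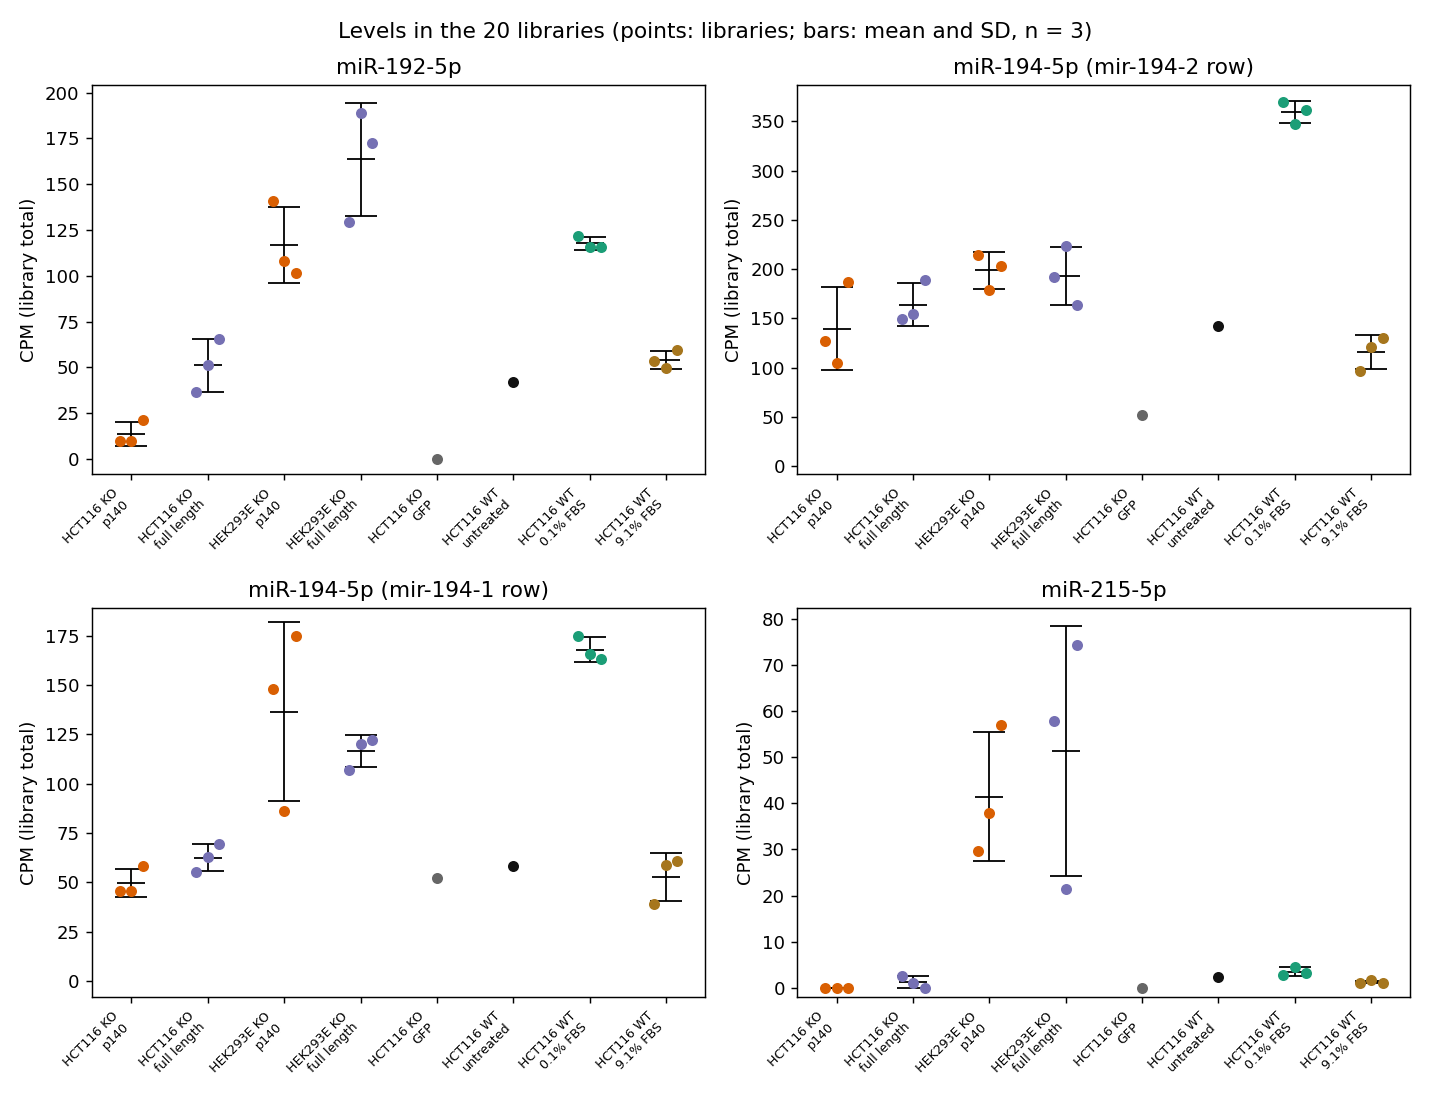
Level of miR-192-5p, of both rows of miR-194-5p and of miR-215-5p in CPM of the library total, for each of the 20 libraries; points are libraries and bars the mean and SD of 3. miR-192-5p is lowest among rescued cells in HCT116 p140, the miR-194-5p rows are highest in 0.1% FBS, and miR-215-5p is above 20 CPM in HEK293E libraries alone.

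Across the 8 groups the members did not rank alike. In CPM of the library total, miR-192-5p was highest in HEK293E full-length (164 ± 30.8, SD), followed by 0.1% FBS (118 ± 3.46), HEK293E p140 (117 ± 20.9), 9.1% FBS (54.2 ± 5.03), HCT116 full-length (51.2 ± 14.4), untreated WT (42.0, 1 library), HCT116 p140 (13.7 ± 6.71; n = 3 in each group but untreated WT) and KO GFP (0 reads). HEK293E full-length lay above 0.1% FBS without overlap but shared part of its range with HEK293E p140. The 0.1% FBS libraries lay within the range of HEK293E p140, 9.1% FBS lay within that of HCT116 full-length, and HCT116 p140 lay below every library except KO GFP. The mir-194-2 row of miR-194-5p was highest in 0.1% FBS (359.8 ± 11.4), which overlapped no other group. HEK293E p140 (199 ± 18.6), HEK293E full-length (193 ± 29.7), HCT116 full-length (164 ± 21.4), untreated WT (142), HCT116 p140 (139 ± 42.3) and 9.1% FBS (116 ± 17.2) followed, each overlapping or within the range of a neighbour, and KO GFP was last (52.2, from 2 reads). The mir-194-1 row ran from 168 ± 6.21 CPM in 0.1% FBS through HEK293E p140 (136 ± 45.3) and HEK293E full-length (116 ± 8.21) to HCT116 full-length (62.6 ± 6.95), untreated WT (58.4), 9.1% FBS (52.8 ± 12.1), KO GFP (52.2, from 2 reads) and HCT116 p140 (49.8 ± 7.16). miR-215-5p averaged 51.3 ± 27.1 CPM in HEK293E full-length and 41.4 ± 14.0 in HEK293E p140, and at most 4.54 CPM in any HCT116 library. Lack of overlap was common: in the pairs of groups compared below, 42.3% to 70.5% of all miRNAs tested did not overlap on TMM-scaled CPM. Within a group, a lower level can mean fewer cells that hold a miRNA or less of it per cell, and these cannot be told apart.

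In HCT116 KO cells, the p140 rescue set against the full-length rescue asks what the shorter enzyme does to each member. miR-192-5p was lower with p140, while miR-194-5p, its cluster partner, did not pass the test in either row with TMM scaling. The libraries held 3, 3 and 7 reads of miR-192-5p with p140, against 29, 45 and 50 with full-length DROSHA. In CPM this was 9.77, 9.82 and 21.4 with p140, against 36.6, 51.5 and 65.4 with full-length DROSHA. The groups did not overlap, as in 64.8% of all miRNAs tested on TMM-scaled CPM, and 13 reads in all stand behind the p140 level. In edgeR's quasi-likelihood test with trimmed-mean (TMM) scaling and Benjamini-Hochberg adjustment over 446 miRNAs, the log2 fold change of miR-192-5p was -1.98 ± 0.44 (SE), a 3.94-fold lower level, with an adjusted p of 0.00863. It was lower in 3 of 3 libraries. miR-192-5p passed the filter on low counts only through its full-length reads, so the filter chose it by the group where it was high. With no filter on low counts its log2 fold change was -2.26 (edgeR, adjusted p = 1.90e-04). With the filter, this comparison called 59.6% of all 446 miRNAs tested, 28.5% as higher and 31.2% as lower. miR-192-5p had the 50th lowest log2 fold change of the 446. Without both replicates 3 its log2 fold change was -2.25 with an adjusted p of 6.65e-04, and with the replicate number as a block its adjusted p was 7.73e-04. In the same libraries the DROSHA-independent share was 21.0%, 18.9% and 7.04% of reads with p140, against 2.74% to 4.98% with full-length DROSHA. The 2 mesenchymal markers, both with reads, summed to 177 to 357 CPM with p140, against 87.7 to 164 CPM with full-length DROSHA. The part of either in the result was not tested.

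miR-194-5p gave 39, 32 and 61 reads (mir-194-2 row) with p140, against 118, 135 and 144 with full-length DROSHA. Its CPM were 127, 105 and 187 with p140, against 149, 155 and 188 with full-length DROSHA, so the groups overlapped. Its log2 fold change was -0.33 ± 0.26 (edgeR, adjusted p = 0.298). The mir-194-1 row gave 45.6, 45.8 and 58.1 CPM with p140, against 55.5, 62.9 and 69.4 with full-length DROSHA. Its log2 fold change was -0.42 ± 0.27 with an adjusted p of 0.216 in the same kind of fit. Scaled to the DROSHA-independent list, where the median of all 446 miRNAs was -1.63, the mir-194-2 row stood at -1.82 (adjusted p = 0.0910) and the mir-194-1 row passed at -2.03 (adjusted p = 0.0430). miR-215-5p had no read in any of the 3 p140 libraries and 2, 1 and 0 reads with full-length DROSHA, and miR-194-3p had 1, 0 and 0 reads against 1, 2 and 1, so no difference was detectable at this depth for either.

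The ratio of the cluster partners within a library needs no scaling between libraries. The mir-194-2 row is not shown to hold reads of MIR194-2 alone, since both hairpins hold the same mature bases. miR-194-5p (mir-194-2 row) over miR-192-5p was 11.3, 9.29 and 8.20 in HCT116 p140, against 4.02, 2.98 and 2.86 in HCT116 full-length (pseudocount 0.5). The groups did not overlap, where 64.8% of single miRNAs did not on TMM-scaled CPM. The ratio was 2.93 times higher with p140, an average difference of 1.55 on the log2 scale. It rests on the same 3, 3 and 7 reads of miR-192-5p as the fold change. The exact two-sided permutation p was 0.1, the smallest that 3 libraries against 3 allow, and 0.4 after adjustment over the 12 ratio tests made. A ratio of reads of 2 miRNAs is not a ratio of molecules, since adaptor ligation favours some ends over others.

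**Figure D2:**
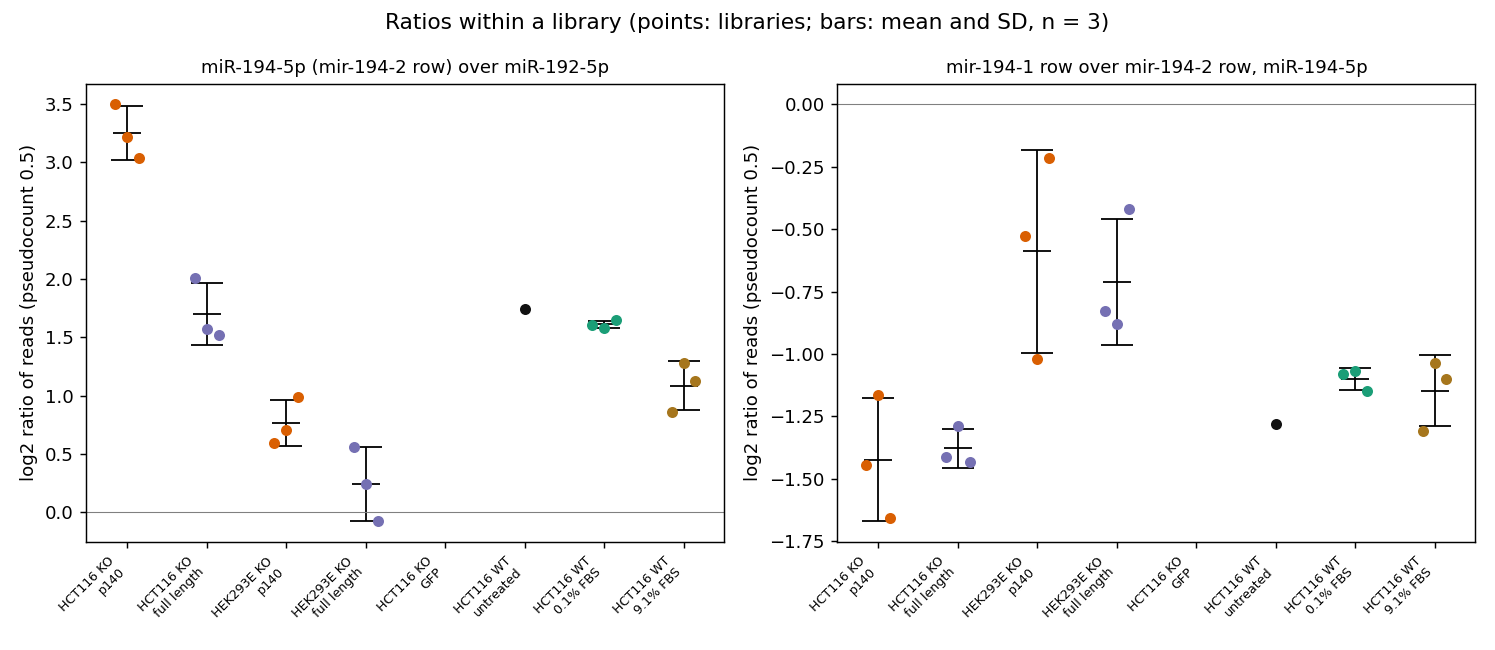
Ratios within a library on a log2 scale with a pseudocount of 0.5: left, miR-194-5p (mir-194-2 row) over miR-192-5p; right, the mir-194-1 row over the mir-194-2 row of miR-194-5p. Points are libraries and bars the mean and SD of 3; KO GFP, with at most 2 reads of a member, is not plotted. HCT116 p140 has the highest ratios on the left, and the HEK293E libraries lie above the rescued HCT116 libraries on the right.

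In HEK293E KO cells the same comparison passed the test for no member with TMM scaling, in a fit that called 26.4% of 416 miRNAs, 5.29% as higher and 21.2% as lower. None of the 3 members tested reached an unadjusted p under 0.05 in edgeR with TMM, nor an adjusted one in DESeq2. miR-192-5p gave 19, 20 and 25 reads with p140, against 29, 44 and 58 with full-length DROSHA. Its CPM were 141, 108 and 102 with p140, against 129, 189 and 173 with full-length DROSHA, so that replicate 1 of p140 lay inside the full-length range. The log2 fold change was -0.43 ± 0.28 (edgeR, adjusted p = 0.300). Scaled to the DROSHA-independent list, where the median of all 416 miRNAs was -0.74, miR-192-5p passed as lower (-1.16 ± 0.36, adjusted p = 0.00683). miR-194-5p had 215, 178 and 203 CPM in its mir-194-2 row with p140, against 192, 223 and 164 CPM with full-length DROSHA, and overlapped throughout (0.13 ± 0.24, adjusted p = 0.740). The mir-194-1 row, with 148, 86.4 and 175 CPM with p140 and 107, 120.2 and 122 CPM with full-length DROSHA, had a log2 fold change of 0.31 ± 0.31 (edgeR, adjusted p = 0.513).

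HEK293E cells held enough miR-215-5p to test, with 4, 7 and 14 reads with p140, against 13, 5 and 25 with full-length DROSHA. These are 29.6, 37.8 and 56.9 CPM with p140, against 58.0, 21.5 and 74.4 CPM with full-length DROSHA, wholly overlapping (log2 fold change -0.21 ± 0.48, edgeR, adjusted p = 0.788). miR-194-3p had 0, 2 and 0 reads with p140 and 1, 3 and 0 with full-length DROSHA. The ratio of miR-194-5p to miR-192-5p was 1.51, 1.63 and 1.98 with p140, against 1.47, 1.18 and 0.949 with full-length DROSHA. The groups did not overlap, by a narrow margin, where 42.3% of single miRNAs did not on TMM-scaled CPM. The exact permutation p was again 0.1, the smallest possible.

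With TMM the fall of miR-192-5p with p140 was past the threshold in HCT116 and not in HEK293E, where it passed on the DROSHA-independent scale, and the difference between the lines was tested itself. The interaction of line and DROSHA form, fitted over the 12 rescue libraries, was 1.48 ± 0.51 on the log2 scale for miR-192-5p, with an unadjusted p of 0.0109 and an adjusted p of 0.137 over 515 miRNAs in edgeR. It did not pass, in a test that called 3.3% of miRNAs, 2.14% with a positive and 1.17% with a negative interaction. Over its alternatives the adjusted p ran between 0.0280 and 0.330, and it was under the threshold in 1 of 18, without replicate 3 of HCT116 p140 (1.96, adjusted p = 0.0280). Neither miR-194-5p (0.39 ± 0.34, adjusted p = 0.604) nor its mir-194-1 row (0.67 ± 0.41, adjusted p = 0.393) passed.

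**Figure D3:**
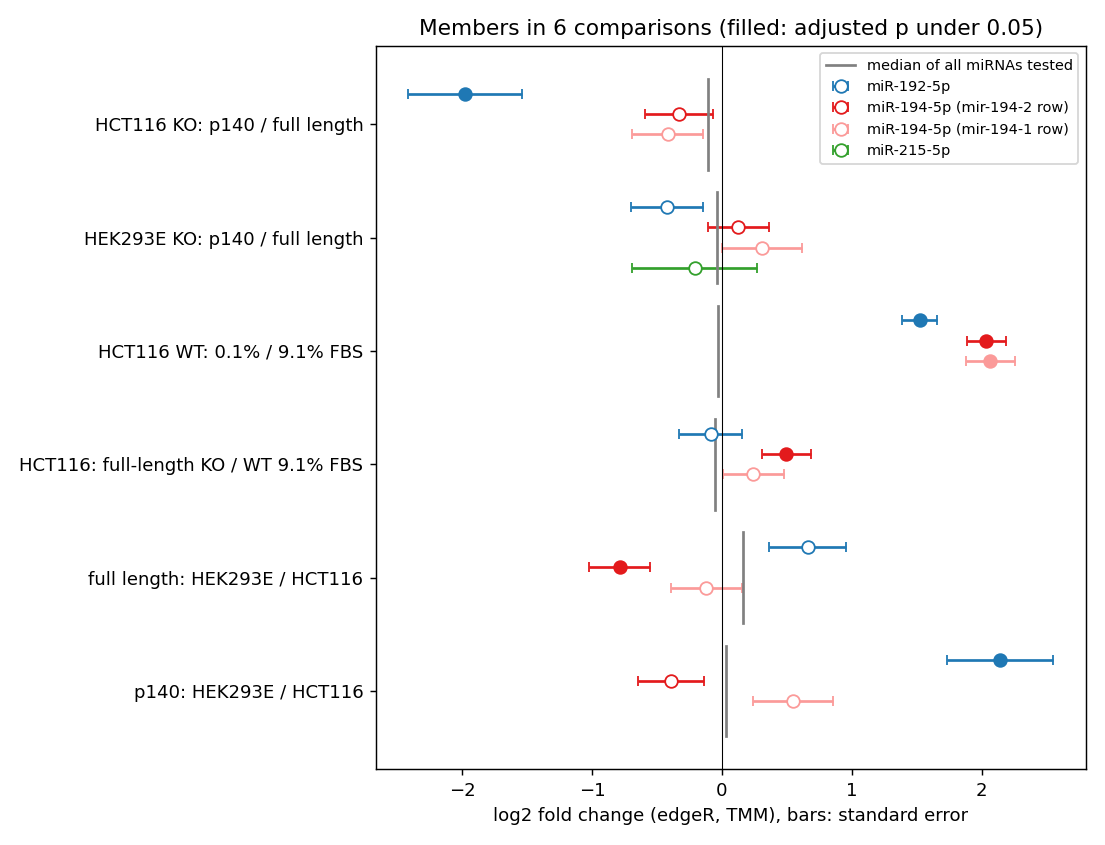
Log2 fold change of the members (points, with SE as bars) in 6 comparisons from edgeR with TMM scaling; filled points have an adjusted p under 0.05 and grey lines give the median over all miRNAs tested. miR-192-5p falls in HCT116 p140 at -1.98 and the rows of miR-194-5p rise in 0.1% FBS by 2.04 and 2.07; between the lines miR-215-5p is left out and miR-194-5p (mir-194-2 row, -0.79 and -0.39) turns to 0.24 and 0.51 with library totals alone.

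Serum starvation of WT HCT116 cells raised miR-192-5p and both rows of miR-194-5p, in the deepest libraries of the series. miR-194-5p had 654, 843 and 1021 reads in its mir-194-2 row in 0.1% FBS, against 169, 226 and 251 in 9.1% FBS. In CPM this was 370.1, 348 and 362 in 0.1% FBS, against 96.8, 121 and 130.2 in 9.1% FBS. All 3 starved libraries lay far above all 3 fed ones. The log2 fold change was 2.04 ± 0.15 (4.10-fold, edgeR, adjusted p = 4.47e-05), the 11th highest of 577 miRNAs. The comparison called 45.8% of miRNAs, 25.5% as higher and 20.3% as lower. The mir-194-1 row rose by as much, to 175, 166 and 163 CPM in 0.1% FBS, against 39.0, 58.8 and 60.7 CPM in 9.1% FBS (2.07 ± 0.19, edgeR, adjusted p = 1.26e-04).

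miR-192-5p had 215, 281 and 326 reads in 0.1% FBS, against 93, 93 and 115 in 9.1% FBS. Its CPM were 122, 116 and 116 in 0.1% FBS, against 53.3, 49.7 and 59.7 in 9.1% FBS. The groups did not overlap, as in 54.9% of all miRNAs tested on TMM-scaled CPM, and the replicates of each lay close together. Its log2 fold change was 1.52 ± 0.14 (2.87-fold, edgeR, adjusted p = 1.15e-04), the 24th highest. TMM scaling raises these folds: miRNAs tested had a median log2 change of -0.03 with TMM, -0.44 with library totals alone and -0.67 when scaled to the DROSHA-independent list. Under every one of the 14 alternatives both miRNAs and the mir-194-1 row still rose, miR-192-5p by 0.87 to 1.64 and miR-194-5p by 1.38 to 2.15 on the log2 scale.

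The ratio within a library was compared again. That of miR-194-5p to miR-192-5p was 3.04, 2.996 and 3.13 in 0.1% FBS, against 1.81, 2.42 and 2.18 in 9.1% FBS. The groups had no overlap, where 54.9% of single miRNAs had none on TMM-scaled CPM. The ratio differed 1.44-fold with an exact permutation p of 0.1, the smallest possible (0.4 adjusted over the 12 ratio tests), so that it did not pass. Untreated WT cells stood at 3.36, in a single library. miR-215-5p, which shares the seed of miR-192-5p but lies in the other cluster, had 5, 11 and 9 reads in 0.1% FBS, against 2, 3 and 2 in 9.1% FBS. It was too rare to enter the fit. In CPM it had 2.83, 4.54 and 3.19 in 0.1% FBS, against 1.15, 1.60 and 1.04 in 9.1% FBS, and the pooled ratio of 2.82 had an exact 95% interval of 1.19 to 7.73 that covers counting error only. miR-194-3p had 3, 4 and 6 reads in 0.1% FBS and 2, 4 and 0 in 9.1% FBS, so the kept strand was miR-194-5p in both media. Blood-cell miRNAs moved in the same direction, higher in the medium with less serum. All 6 of 6 markers had reads in both media, and their sum was 187 to 210 CPM in 0.1% FBS, against 55.6 to 76.8 CPM in 9.1% FBS. Their part in the result was not tested.

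Other p53-linked miRNAs were set beside the members. Of 15 listed, 10 were tested in the serum experiment, 5 rose and 2 fell, with a list median of 0.54 against -0.03 for all 577, of which 25.5% were called higher and 20.3% lower. miR-34a-5p, the best known p53-induced miRNA, rose by 1.67 ± 0.30 (edgeR, adjusted p = 0.00238) and miR-107 by 1.05 ± 0.11 (adjusted p = 2.00e-04). miR-22-3p fell by 0.34 on the log2 scale (adjusted p = 0.0487), and miR-16-5p, with -0.03 ± 0.09, did not pass. Scaled to the DROSHA-independent list, 2 rose and 4 fell, where 22 of all 577 rose and 242 fell. miR-34a-5p at 1.01 and miR-107 at 0.41 then no longer passed, and the 2 that still rose were miR-34c-5p (2.64) and miR-143-3p (1.42), named after their values were seen. Of the 8 listed epithelial miRNAs all were tested, 7 rose and none fell, with a median of 0.64. miR-200c-3p rose by 0.65 ± 0.13 (adjusted p = 0.00374), miR-141-3p by 0.63 ± 0.22 (0.0434), miR-200b-3p by 0.70 ± 0.09 (6.19e-04) and miR-200a-3p by 1.08 ± 0.17 (0.00127), all from edgeR. These rises depended on scaling: with library totals alone 3 rose and 1 fell, where 73 of all 577 rose and 248 fell, and with the DROSHA-independent list 1 rose and 1 fell, miR-200c-3p and miR-141-3p both standing at -0.00. The one of this list that rose under all 3 scalings was miR-205-5p (3.82, 3.41 and 3.15), named after its values were seen.

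**Figure D4:**
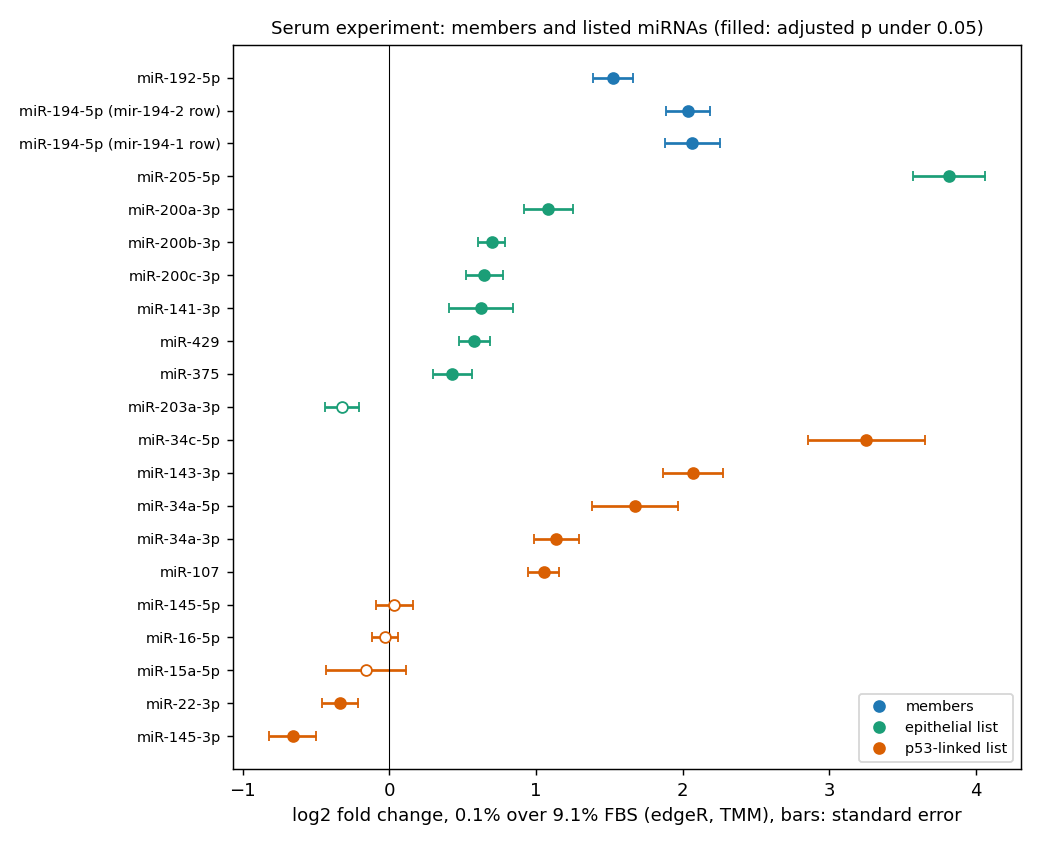
Log2 fold change of 0.1% over 9.1% FBS with SE (edgeR, TMM) for miR-192-5p and both rows of miR-194-5p, the 8 listed epithelial miRNAs and the 10 tested p53-linked miRNAs; filled points have an adjusted p under 0.05. The members lie between 1.52 and 2.07, above the miR-200 family members, which lie between 0.58 and 1.08 with TMM and whose rise depends on scaling; miR-205-5p is the highest of the epithelial list at 3.82.

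In the HCT116 rescue the p53-linked list held 8 tested miRNAs, of which 2 rose and 1 fell, with a median of 0.21 against -0.11 for all, of which 28.5% were called higher and 31.2% lower. miR-34a-5p rose by 0.53 ± 0.17 (edgeR, adjusted p = 0.0293), and 3 others with high counts did not pass, namely miR-16-5p at 0.03, miR-22-3p at 0.38 and miR-107 at -0.13. The other riser was miR-145-5p (1.08) and the one that fell was miR-15a-5p (-1.91), both named after their values were seen. Scaled to the DROSHA-independent list only miR-15a-5p passed, as lower, where 170 of all 446 fell and 0 rose in edgeR, and with the replicate block miR-22-3p also rose (adjusted p = 0.00140). Of 5 epithelial miRNAs tested, 1 fell, miR-200c-3p at -1.01 ± 0.25 (edgeR, adjusted p = 0.0111), while miR-203a-3p at 0.09 and miR-141-3p at -0.70 did not pass; with the replicate block miR-141-3p passed as well (-0.74, adjusted p = 0.0462). In the HEK293E rescue 0 of 6 p53-linked and 0 of 4 epithelial miRNAs passed in edgeR with TMM scaling, 0 had an unadjusted p under 0.05, and DESeq2 called 0. With the replicate block miR-34a-5p rose (0.31, adjusted p = 0.0351) and miR-200c-3p fell (-0.88, adjusted p = 0.0290), and scaled to the DROSHA-independent list 2 of each fell, where 212 of all 416 fell and 4 rose.

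The lines were compared within each rescue. Line and handling cannot be told apart, and scaling moved the values: the median log2 change of all 515 miRNAs between the full-length groups was 0.16 with TMM and 1.18 with library totals alone. miR-215-5p, miR-192-5p and the mir-194-1 row of miR-194-5p had higher CPM in all 3 HEK293E libraries than in any HCT116 library of the same rescue. miR-215-5p had 13, 5 and 25 reads in HEK293E full-length, against 2, 1 and 0 in HCT116 full-length, although the HCT116 libraries were deeper. In CPM this was 58.0, 21.5 and 74.4 in HEK293E, against 2.52, 1.14 and 0 in HCT116. It entered the fit between the lines only through its HEK293E reads, so no test of it is given here. The comparison called 61.9% of miRNAs, 34.6% as higher and 27.4% as lower, with no overlap in 70.5% on TMM-scaled CPM. The pooled ratio of 43 reads to 3 was 43.9 in CPM, with an exact 95% counting interval of 14.1 to 221. With p140, 25 reads in HEK293E stood against none in HCT116, which is 44.2 CPM over the HEK293E group, against 0 of 939741 reads in HCT116, which allows up to 3.19 CPM (3 reads over the group). That comparison called 55.3% of miRNAs, 27.6% as higher and 27.8% as lower, with no overlap in 57.7% on TMM-scaled CPM. Markers of other cell types differed between the lines as well: 5 of 6 blood markers had reads in each full-length group, with miR-223-3p at 0, and summed to 455 to 953 CPM in HEK293E, against 37.8 to 43.2 CPM in HCT116. The neural marker miR-124-3p had 80.3 to 133 CPM in HEK293E full-length, against 0 to 2.62 CPM in HCT116 full-length. Their part in the result was not tested.

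miR-192-5p, the seed relative of miR-215-5p, was also higher in HEK293E p140 than in HCT116 p140, by 2.14 ± 0.41 on the log2 scale (edgeR, adjusted p = 3.60e-04), with no overlap between 141, 108 and 102 CPM in HEK293E and 9.77, 9.82 and 21.4 CPM in HCT116. Between the full-length groups it had 129, 189 and 173 CPM in HEK293E, against 36.6, 51.5 and 65.4 CPM in HCT116, with no overlap. With TMM it stood at 0.66 ± 0.30 and did not pass (adjusted p = 0.0649), but it passed with library totals alone (1.68, adjusted p = 1.55e-04) and with DESeq2 (0.74, adjusted p = 0.0475). miR-194-5p had no stable direction between the lines. Its mir-194-2 row was lower in HEK293E full-length with TMM (-0.79 ± 0.24, edgeR, adjusted p = 0.00933) and at 0.24 with library totals alone (adjusted p = 0.413), and its call was lost without replicate 3 of HCT116 full-length (-0.65, adjusted p = 0.0645). Between the p140 groups it was at -0.39 ± 0.25 (adjusted p = 0.196), or 0.51 with library totals alone. The mir-194-1 row was at -0.12 ± 0.27 between the full-length groups (adjusted p = 0.726) and at 0.55 ± 0.31 between the p140 groups (adjusted p = 0.139), and passed as higher with library totals alone (0.90, adjusted p = 0.00946, and 1.45, adjusted p = 8.06e-04).

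Ratios within a library need no such scaling. In the rescue libraries those of miR-194-5p to miR-192-5p and of the rows of miR-194-5p did not overlap between the lines. miR-215-5p over miR-192-5p overlapped, with 0.124 to 0.569 in HEK293E, against 0.00990 to 0.143 in HCT116 (pseudocount 0.5). So did miR-194-3p over miR-194-5p, with 0.00901 to 0.0746 in HEK293E, against 0.00813 to 0.0380 in HCT116. The ratio of miR-194-5p to miR-192-5p was 0.949 to 1.98 over the 6 HEK293E rescue libraries, against 2.86 to 11.3 over the 6 HCT116 ones. Over all 14 HCT116 libraries it began at 1.81, in 9.1% FBS, within the HEK293E range. The mir-194-1 row over the mir-194-2 row was 0.493 to 0.861 in HEK293E, against 0.317 to 0.446 in the rescued HCT116 libraries. The WT serum libraries reached up to 0.488, close to the lowest HEK293E value. Without the pseudocount they overlapped HEK293E, with 48.7% in 9.1% FBS replicate 2 against 48.5% in HEK293E p140 replicate 2. KO GFP, with 2 reads in each row, stood at 1. Groups overlapped in the ratio of the rows by DROSHA form and by serum: it was 0.367, 0.446 and 0.317 in HCT116 p140, against 0.376, 0.410 and 0.370 in HCT116 full-length (exact permutation p = 0.8), and 0.473, 0.477 and 0.451 in 0.1% FBS, against 0.404, 0.488 and 0.467 in 9.1% FBS (exact permutation p = 0.8). In HEK293E it was 0.695, 0.493 and 0.861 with p140, against 0.563, 0.543 and 0.748 with full-length DROSHA (exact permutation p = 0.7). How the authors shared reads between the rows is not given in the sources used here, so the rows are read counts per listed hairpin and not shown to be the output of each locus.

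The full-length rescue of HCT116 was set against WT cells in 9.1% FBS to compare the levels of the members. Experiment and genotype cannot be told apart here, and the epithelial list was far from its WT level in the same libraries: of 7 tested, 1 rose and 6 fell, where 28.8% of all 566 miRNAs were called higher and 29.7% lower, with a median log2 change of -7.16. Among those that fell, the log2 fold change was -7.36 ± 0.24 for miR-141-3p and -6.77 ± 0.19 for miR-200c-3p (edgeR), and the one that rose was miR-203a-3p (1.73), named after its value was seen. miR-192-5p had 36.6, 51.5 and 65.4 CPM in the rescue, against 53.3, 49.7 and 59.7 CPM in WT cells, wholly overlapping (-0.09 ± 0.24, edgeR, adjusted p = 0.768). Scaled to the DROSHA-independent list, where the median of all was -2.02, it passed as lower at -2.02 (adjusted p = 0.00253). miR-194-5p had 149, 155 and 188 CPM in the rescue, against 96.8, 121 and 130.2 CPM in WT cells, with no overlap. Its log2 fold change was 0.50 ± 0.19 (edgeR, adjusted p = 0.0449), and 0.50 with an adjusted p of 0.00962 under the replicate block. The comparison called 58.5% of miRNAs, with no overlap in 65.4% on TMM-scaled CPM. The call was lost in 7 of 12 alternatives and the direction turned with the DROSHA-independent list (-1.47), so it rests on the scaling and on single libraries: without any 1 of 5 of the 6 libraries its adjusted p was 0.0869 to 0.180, and it was 0.532 with no filter on low counts. The mir-194-1 row did not pass (0.24 ± 0.24, adjusted p = 0.400).

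KO cells with GFP gave a single library of 38288 reads, with no replicate check. miR-192-5p had 0 reads there, against 36 in untreated WT cells. A count of 0 allows up to 78.4 CPM in KO GFP at 3 reads (exact 95% upper limit 96.3 CPM), above the 42.0 CPM of the WT library, so its loss was not detectable at this depth. Each row of miR-194-5p had 2 reads in KO GFP, against 122 (mir-194-2) and 50 (mir-194-1) in WT. The ratios of KO GFP to WT were 0.367 for the mir-194-2 row (exact 95% interval 0.0439 to 1.35) and 0.895 for the mir-194-1 row (0.105 to 3.41), intervals that cover counting error only and include no change. miR-215-5p had 0 reads in KO GFP and 2 in WT, and miR-194-3p 0 in both.

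Over the 18 replicated libraries, the log2 CPM of miR-192-5p followed those of miR-425-3p (Pearson r = 0.94), miR-374b-5p (0.93) and miR-425-5p (0.93) most closely among 250 miRNAs with a mean of at least 100 CPM. The CPM in this paragraph are TMM-scaled over the 18 libraries and not of the library total. miR-374b-5p had 92.9 ± 45.6 CPM in HCT116 p140 and 1278 ± 134 CPM in HCT116 full-length, a wider gap than that of miR-192-5p. miR-194-5p was most like miR-146b-5p (0.92), let-7e-5p (0.88) and miR-324-5p (0.87). miR-146b-5p had 332 ± 11.3 CPM in 0.1% FBS and 143 ± 17.6 CPM in 9.1% FBS. miR-215-5p was most like miR-361-5p (0.95), miR-99a-5p (0.90) and miR-10b-5p (0.90), which were all higher in HEK293E, miR-99a-5p with 2140 ± 399 CPM in HEK293E full-length and 15.3 ± 13.2 CPM in HCT116 full-length. Among the members r was 0.61 for miR-192-5p with miR-194-5p, 0.45 for miR-192-5p with miR-215-5p and -0.22 for miR-194-5p with miR-215-5p. These values share libraries, depth and a few group differences and are given as descriptions.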

How the data were processed

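Small RNA-seq libraries were made from total RNA with randomized adaptors and spike-ins and sequenced on a MiSeq, per the labels' protocols; cutadapt, STAR and bedtools are named in the submitters' processing notes, with hg38 as the build. For none of these is a version or parameter recorded in the sources, nor how reads were divided between identical hairpin copies. The deposited files hold the authors' read counts per mature miRNA and hairpin; the spike-ins were not used here. CPM were computed from library totals of 38288 to 2822317 reads, so 3 reads correspond to 1.06 to 78.4 CPM. Shares of all miRNAs without overlap, and levels of the miRNAs most like a member, were taken on TMM-scaled CPM.

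Where a mature miRNA had several rows (167 miRNAs), the row with the highest total entered the fits; a second fit used the mir-194-1 row. The lowest row held over 95% of the highest for 31 of the 39 that reached 500 reads in all. Tests used edgeR 4.0.16 (quasi-likelihood, TMM, filterByExpr with a minimum count of 10, Benjamini-Hochberg, threshold 0.05) in R 4.3.3, tested on simulated data; DESeq2 1.42.0 was an alternative, beside other scalings, no filter, all rows, a replicate block and leaving out libraries. Ratios within a library were compared by exact two-sided permutation, and intervals are exact (Clopper-Pearson) at 95%. Hairpins were placed with GENCODE v29 gene models.

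Members and lists were chosen with earlier results of these data known. Named beside the members were the other arms, the 3 miRNAs with the highest correlation to each, and up to 4 listed miRNAs of the highest mean CPM. Same-numbered libraries deviated together in the HCT116 rescue (r of 0.36 to 0.68), the HEK293E rescue (0.35 to 0.56), the serum experiment (0.15 to 0.67) and the full-length rescue against WT cells (0.15 to 0.37). Some differently numbered libraries did so as much. In the HCT116 rescue r was 0.37 for p140 replicate 1 with full-length replicate 2. With serum it was 0.48 for 0.1% FBS replicate 2 with 9.1% FBS replicate 1. In these 2 comparisons the values set replicate 3 apart and do not clearly pair replicates 1 and 2. The labels do not say what the numbers share.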

Additional observations from a re-analysis of the deposited data

How the results depend on the processing

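Of 388 alternatives for the members' log2 fold changes, 357 kept the direction and the side of the threshold, 9 lost a call, 11 gained one and 11 turned the direction. The fall of miR-192-5p with p140 in HCT116 held in 14 of 14 alternatives (-3.64 to -1.80, edgeR or DESeq2 adjusted p 8.59e-05 to 0.0399), and the serum calls of miR-192-5p and both rows of miR-194-5p held in 14 of 14. In the main fit of the HCT116 rescue, miR-192-5p passed the filter on low counts only through its full-length reads.

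Scaling to the DROSHA-independent list moved the count of changed miRNAs to 170 in the HCT116 rescue (main 266), to 216 in the HEK293E rescue (main 110) and, for the interaction, to 0 in edgeR (main 17). On that scale 71 miRNAs had an unadjusted p under 0.05 for the interaction in edgeR, against 105 with TMM. DESeq2 with its own size factors called 23. Scaling to the list brought miR-192-5p in the HEK293E rescue (-1.16) and against WT cells (-2.02), and the mir-194-1 row in the HCT116 rescue (-2.03), under the threshold. It also turned miR-194-5p in the HEK293E rescue to -0.58 and its mir-194-1 row to -0.38, and against WT cells in 9.1% FBS to -1.47 and -1.75; that list is small in the WT libraries, and the cause was not tested. There the mir-194-1 row was -0.024 with no filter on low counts. With library totals alone, miR-194-5p between the lines was 0.24 (mir-194-2 row) and 0.90 (mir-194-1 row, adjusted p = 0.00946 in edgeR) between the full-length groups, and 0.51 between the p140 groups (mir-194-2 row). The share of calls that were lower also moved. With TMM it was 52.3% in the HCT116 rescue, 80.0% in the HEK293E rescue, 44.3% with serum and 50.8% for the rescue against WT, and on the DROSHA-independent scale it was 100%, 98.1%, 91.7% and 96.1%. With library totals alone it was 77.3% with serum, 18.2% between the full-length groups (44.2% with TMM) and 24.1% between the p140 groups (50.2% with TMM).

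Same-numbered libraries deviated together within both rescues, the serum experiment and the full-length rescue against WT cells. In the HCT116 rescue and with serum this set replicate 3 apart and did not clearly pair replicates 1 and 2. With the replicate block the HEK293E rescue called 183 miRNAs, and no call of a member changed in these 4 comparisons. Between the lines the numbers paired no samples, and the block brought miR-192-5p under the threshold with full-length DROSHA (0.66, adjusted p = 0.0454 in edgeR).

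Leaving out 1 library at a time moved the interaction count between 5 (without HEK293E p140 replicate 2) and 85 (without HCT116 p140 replicate 3), by over 1.5 times for 9 of the 12 libraries. It moved miR-215-5p in the HEK293E rescue between -0.60 and 0.19, and miR-192-5p against WT cells between -0.29 and 0.060. Differences of log2 ratios then ran from -0.26 to 0.85 (miR-194-3p over miR-194-5p) and -0.17 to 0.073 (rows of miR-194-5p) in the HCT116 rescue; from -0.30 to 0.65 (miR-215-5p over miR-192-5p), -1.08 to 0.40 (miR-194-3p) and -0.064 to 0.34 (rows) in HEK293E; and from -0.033 to 0.37, -1.60 to 0.064 and -0.032 to 0.10 in the same order with serum. With 3 libraries against 3 no ratio test can go below 0.1, and those with miR-194-3p or miR-215-5p rest on few reads; that of miR-215-5p in the HCT116 rescue follows from the pseudocount, since p140 had no read. miR-194-5p over miR-192-5p stayed higher in all 3 comparisons. Depth limits all of this: miR-192-5p rests on 3 to 7 reads a library in HCT116 p140.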
